A study of Mus musculus with 4 samples.

Results

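The immediate-early genes described here are 10 transcription regulators and related nuclear factors: Fos, Fosb, Jun, Junb, Jund, Egr1, Egr2, Egr3, Atf3 and Ier2. Members were taken by gene symbol, with no filter on measured values but with earlier results of these data known. All 10 were among the 12814 genes of the RNA-seq table. The libraries came from the inner ears of newborn mice at postnatal day 1. All mice carried the Atoh1/nGFP transgene on a C57BL/6 background, in which a nuclear green fluorescent protein driven by an Atoh1 enhancer marks hair cells (HCs), the mechanosensory cells of the ear. The groups were cochlear HCs, cochlear epithelial non-sensory cells (ENSCs), vestibular HCs and vestibular ENSCs, with 1 library each. HCs were sorted as GFP-positive and CD326-positive cells and ENSCs as GFP-negative and CD326-positive cells, CD326 being the epithelial surface protein EpCAM. Each library pooled several mice, and 1 library per group allows no test, so every difference below compares libraries and has no replicate check.

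Immediate-early genes are transcribed within minutes of a stimulus without the need for new protein synthesis. Growth factor, calcium and stress signals reach them through MAP kinases, which act on serum response factor with its ternary complex partners and on CREB. FOS proteins pair with JUN proteins as the AP-1 leucine zipper dimer, JUN proteins can also pair among themselves, EGR proteins bind GC-rich DNA through zinc fingers, and ATF3 is a stress-induced leucine zipper factor. Dissociation of tissue with enzymes at warm temperature is widely known to induce this family. Here the tissue was digested with thermolysin and then Accutase, disrupted mechanically, stained on ice and passed through a flow sorter. That procedure was described for all 4 populations alike, and undissociated tissue was not analysed here. RNA present in the ear and RNA made during handling therefore cannot be told apart, and the part of dissociation and sorting in the differences below was not tested.

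Values are quantile-normalized gene counts with a floor of 20, called signal here. The scaling gave every library a total of 7830343 and a median of 120 over all genes, so original depth is unknown. The lowest values of a library form tied steps whose top lies at 20 for vestibular ENSCs, 24.25 for cochlear HCs, 22.75 for cochlear ENSCs and 30.5 for vestibular HCs. A fold against a value in that range is given as a lower bound. The sort was checked on marker lists. Each of the 10 hair cell markers exceeded its ENSC signal by 3-fold or more in either organ, with summed signals of 37419.75 and 32616.25 in HCs against 1879.5 and 1467.25 in ENSCs. In bulk populations, fewer cells of a type and less RNA per cell cannot be told apart.

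Promoter windows of the members were searched for the letters of elements through which the upstream pathways act. The 3 windows shown were picked because each carries such letters close to the start site, which not every member's window did. Sequences are from RefSeq on GRCm38.p6 and give the 150 bases before the start site, on the strand of the gene. Capitals mark motif matches. The Fos stretch, chr12:85473740-85473889 on the plus strand, holds 2 matches to the core of the cyclic AMP response element (CRE; TGACG) and a TATA box (TATAAA). The Fosb stretch, chr7:19310046-19310195 on the minus strand, holds a CRE core and an EGR site (GCGGGGGCG). The Egr2 stretch, chr10:67537719-67537868 on the plus strand, holds a serum response (CArG) element between a CRE core and the same letters on the opposite strand (CGTCA).
Fos: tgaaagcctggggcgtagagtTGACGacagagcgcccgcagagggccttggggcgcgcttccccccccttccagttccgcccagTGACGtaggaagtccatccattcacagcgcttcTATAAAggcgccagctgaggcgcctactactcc
Fosb: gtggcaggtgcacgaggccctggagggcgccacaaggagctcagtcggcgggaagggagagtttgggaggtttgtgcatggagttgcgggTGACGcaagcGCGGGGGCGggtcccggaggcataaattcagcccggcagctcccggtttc
Egr2: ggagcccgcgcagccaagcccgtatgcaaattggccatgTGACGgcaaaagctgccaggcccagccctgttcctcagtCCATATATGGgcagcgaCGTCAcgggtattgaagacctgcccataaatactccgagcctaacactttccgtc

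Both strands were searched in windows of 300 bases, 250 before each start site and 50 from it on. Of the 10 members, 7 had such a window, 11 windows in all since Egr2 has 5; Egr1, Egr3 and Ier2 had none. In Fos the CRE cores began 129 and 66 bases before the start and the TATA box 33 bases before it. In Fosb the CRE core began 60 bases before the start and the EGR site 50 bases before it. In the Egr2 window shown the CArG element began 72 bases before the start. Junb had a CRE core 106 bases before the start and the letters TATAAA beginning at the start base itself, and Atf3 had a CRE core on the opposite strand 7 bases before the start. The Jun and Jund windows held none of the motifs searched, and neither the full CRE (TGACGTCA) nor the AP-1 site (TGANTCA) was found in a member's window. Of 32851 mouse promoter windows, 1.63% held a CArG element, 20.8% a CRE core, 1.79% a full CRE, 7.81% an AP-1 site, 3.47% an EGR site (GCGTGGGCG or GCGGGGGCG) and 13.6% a TATA box. Among the 12096 windows of genes in the table the shares were 1.31%, 30.8%, 3.12%, 4.96%, 6.58% and 7.12% in that order. These matches describe letters only, and every full CRE also counts as a CRE core.

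Immediate-early transcripts were lower in HCs than in ENSCs in both organs. In the cochlea 9 of 10 members had lower signal in HCs, and Egr3 was at the floor in both populations. In the vestibular system 9 of 10 were lower in HCs, and Jund was the exception. At a threshold of 3-fold, 4 members were lower in cochlear HCs (Fos, Fosb, Jun and Ier2) where 9.2% of all genes were that much lower, 8.39% that much higher and 17.6% differed in either direction. In the vestibular system 6 were lower (Atf3, Fosb, Ier2, Junb, Jun and Egr3), where 14.3% of all genes were lower, 13.8% higher and 28.1% differed. After subtraction of the trends on gene length and GC content, Fosb and Atf3 alone stayed lower past 3-fold in the vestibular system, Jund was 3.48-fold higher, and the median was -0.76. The median log2 ratio of HCs to ENSCs over the members was -1.41 for the cochlea and -1.70 for the vestibular system, while over all genes it was 0.00 for either organ. Fosb, Jun and Ier2 were at least 3-fold lower in HCs of both organs, as were 4.66% of all genes. Any lower signal in HCs, of whatever size, was seen for 46.6% of cochlear and 50.1% of vestibular ratios over all genes.

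**Figure D1:**
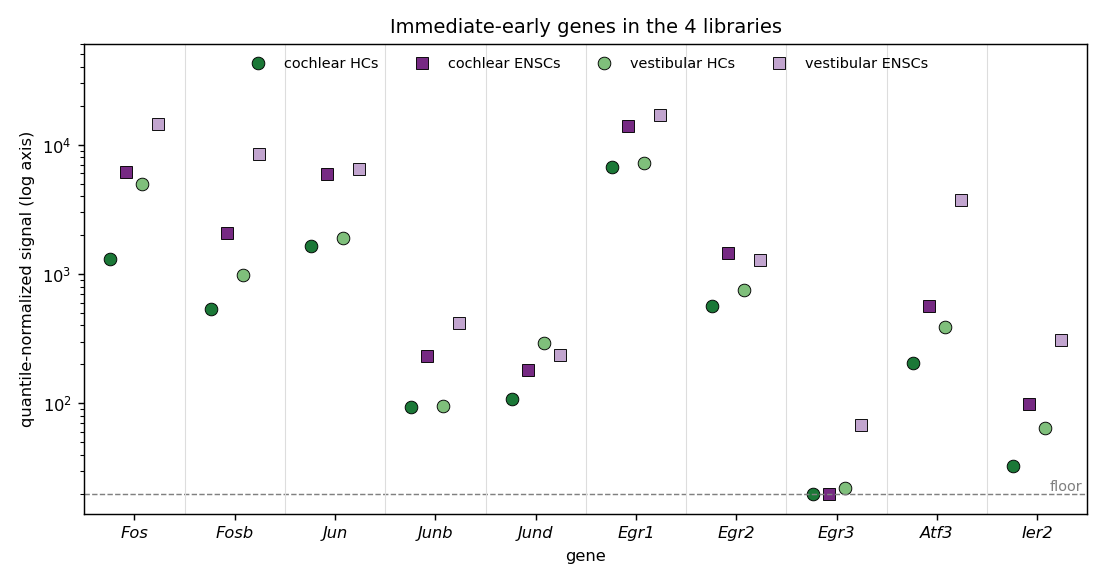
Signal of each immediate-early gene in the 4 libraries on a log axis, 1 point per library, with the floor of 20 drawn as a line. Egr1 lies highest and Egr3 lies at or near the floor, and 8 of 10 genes are lowest in cochlear HCs (Egr3 tied) and highest in vestibular ENSCs.

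Among the FOS proteins, the AP-1 subunits that must pair with a JUN partner, Fos (ENSMUSG00000021250, chr12:86814840-86818223, mm9) had signals of 1295.5 in cochlear HCs, 6104.5 in cochlear ENSCs, 4995.25 in vestibular HCs and 14506.25 in vestibular ENSCs. Cochlear HCs stood apart below the other libraries. Fos was 4.71-fold lower in HCs than in ENSCs of the cochlea (log2 ratio -2.24) and 2.90-fold lower in the vestibular system (-1.54), just under the threshold. Its vestibular HCs came close to the cochlear ENSCs, and 3.26% of genes had a lower ratio of cochlear to vestibular HCs than Fos.

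Fosb (ENSMUSG00000003545, chr7:19888070-19895394, mm9), a paralog of Fos, had signals of 531.75 in cochlear HCs, 2082 in cochlear ENSCs, 982.75 in vestibular HCs and 8422 in vestibular ENSCs. Vestibular ENSCs stood above the other libraries and both HC libraries were below both ENSC libraries. The HC signal was 3.92-fold lower in the cochlea (-1.97) and 8.57-fold lower in the vestibular system (-3.10, and -2.14 after the subtraction). The order over the 2 genes thus differed by organ, with Fos showing the larger cochlear ratio and Fosb the larger vestibular ratio.

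Jun (ENSMUSG00000052684, chr4:94715725-94718913, mm9), the AP-1 subunit activated by JNK, had signals of 1640 in cochlear HCs, 5919.25 in cochlear ENSCs, 1906 in vestibular HCs and 6518 in vestibular ENSCs. The libraries separated by cell population and hardly by organ. The HC signal was 3.61-fold lower in the cochlea (-1.85) and 3.42-fold lower in the vestibular system (-1.77; -0.83 after the subtraction), while the organs differed by 1.16-fold among HCs and 1.10-fold among ENSCs. Jun is a gene of 1 exon, and the annotation places a transcript on the opposite strand, BC042782, over part of it. The strand setting of the counting is not given in the sources used here, so reads of such pairs cannot be assigned; BC042782 itself lay at 20 in both HC libraries and at 26.5 in both ENSC libraries.

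Junb (ENSMUSG00000052837, chr8:87500811-87502617, mm9), which often opposes Jun at AP-1 targets, had lower signals of 93 in cochlear HCs, 234.25 in cochlear ENSCs, 95.75 in vestibular HCs and 421.5 in vestibular ENSCs. The HC libraries were nearly level, and the HC signal was 2.52-fold lower in the cochlea (-1.33) and 4.40-fold lower in the vestibular system (-2.14; -0.69 after the subtraction).

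Jund (ENSMUSG00000071076, chr8:73221638-73224515, mm9) is the JUN protein that many cells make constitutively rather than on stimulation. Its signals were 107.5 in cochlear HCs, 182 in cochlear ENSCs, 291.75 in vestibular HCs and 236 in vestibular ENSCs. Jund was the only member highest in vestibular HCs. Its HC signal was 1.69-fold lower in the cochlea (-0.76) and 1.24-fold higher in the vestibular system (0.31, and 1.80 or 3.48-fold after the subtraction). Cochlear HCs were 2.71-fold below vestibular HCs (-1.44). The annotation also holds Gm11175 on the opposite strand inside Jund, a gene not in the table.

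Atf3 (ENSMUSG00000026628, chr1:192994175-193007219, mm9), induced by many stresses and able to pair with JUN proteins, varied most among the members, by 18.1-fold from the lowest library to the highest. Its signals were 206.5 in cochlear HCs, 568.75 in cochlear ENSCs, 391.75 in vestibular HCs and 3731.5 in vestibular ENSCs. The vestibular ENSC library alone was far above the others. The HC signal was 2.75-fold lower in the cochlea (-1.46) and 9.53-fold lower in the vestibular system (-3.25), the largest HC to ENSC difference among the members. Only 2.77% of genes had a lower vestibular ratio.

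Of the EGR zinc finger factors, Egr1 and Egr2 were lower in HCs of both organs by less than 3-fold. Egr1 (ENSMUSG00000038418, chr18:35020861-35024638, mm9), a direct target of serum response factor, had signals of 6745.5 in cochlear HCs, 13898.5 in cochlear ENSCs, 7269.25 in vestibular HCs and 16850.75 in vestibular ENSCs. As with Jun, the libraries paired by cell population. The HC signal was 2.06-fold lower in the cochlea (-1.04) and 2.32-fold lower in the vestibular system (-1.21), under the threshold in both organs. After the subtraction the vestibular value was -0.53. Gm17507, a gene not in the table, overlaps Egr1 on the opposite strand.

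Egr2 (ENSMUSG00000037868, chr10:66998223-67004936, mm9), also known as Krox20, acts in hindbrain patterning and in myelination by Schwann cells. Its signals were 569.25 in cochlear HCs, 1461.25 in cochlear ENSCs, 754.25 in vestibular HCs and 1279.5 in vestibular ENSCs. It was the only member lower in vestibular than in cochlear ENSCs. The HC signal was 2.57-fold lower in the cochlea (-1.36) and 1.70-fold lower in the vestibular system (-0.76). That vestibular value was -0.11 after the subtraction, nearly level.

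Egr3 (ENSMUSG00000033730, chr14:70477252-70479964, mm9) was scarcely detected. It lay at the floor of 20 in both cochlear libraries, at 22 in vestibular HCs and at 67.75 in vestibular ENSCs. The values in the first 3 libraries were inside their tied lowest range. The vestibular ENSC signal was at least 2.22-fold higher than the HC signal and at least 2.98-fold higher than that of cochlear ENSCs. Both bounds are under 3-fold, so counts that include Egr3 rest on values near the floor, and without it 5 members passed in the vestibular system.

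Ier2 (ENSMUSG00000053560, chr8:87185230-87186751, mm9), a small nuclear protein of the same early response, had signals of 32.75 in cochlear HCs, 98.5 in cochlear ENSCs, 64.25 in vestibular HCs and 310.5 in vestibular ENSCs. All were low. The HC signal was 3.01-fold lower in the cochlea (-1.59), barely past the threshold, and 4.83-fold lower in the vestibular system (-2.27; -0.92 after the subtraction).

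**Figure D2:**
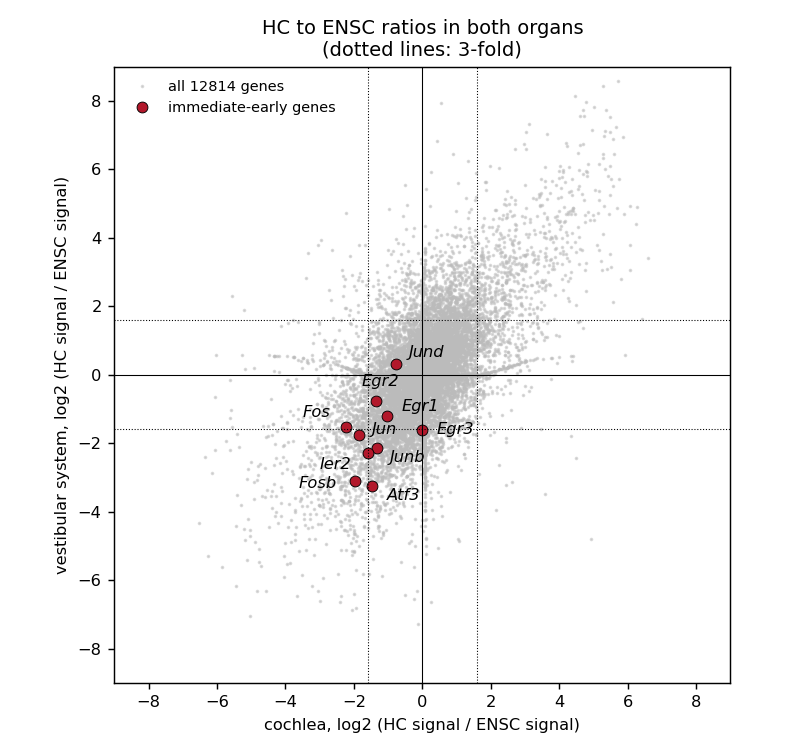
Log2 ratio of HC to ENSC signal in the cochlea (x axis) against that in the vestibular system (y axis) for all 12814 genes (grey) and the immediate-early genes (coloured and named), with 3-fold lines. The members lie left of or at 0 in the cochlea and all but Jund lie below 0 in the vestibular system.

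Per length of exonic sequence, the order of the members by mean signal per kilobase over the 4 libraries was Egr1 at 3610, Fos at 2859, Jun at 1253, Fosb at 801, Atf3 at 617, Egr2 at 299, Junb at 117, Ier2 at 83.1, Jund at 71.0 and Egr3 at 22.1. Egr1 and Fos together were the most abundant, and the order changed with the library. In vestibular ENSCs Fos led with 6168 per kilobase against 5436 for Egr1, whereas in cochlear HCs Egr1 led with 2176 against 551 for Fos and 514 for Jun. Fosb and Atf3 reached 2245 and 1881 per kilobase in vestibular ENSCs, close to Jun at 2044, but 142 and 104 in cochlear HCs. With 1 library per group no spread is known, so neighbours in this order cannot be said to differ.

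Between organs, 9 members were lower in cochlear than in vestibular HCs, and Egr3 lay in the tied lowest range of both. With the floor raised to 100, 7 members were lower and the others level. Likewise 9 of 10 were lower in cochlear than in vestibular ENSCs. Of all genes, 46.5% were lower in cochlear HCs and 47.1% in cochlear ENSCs. The sizes were small among HCs: Fos alone passed 3-fold (3.86-fold, log2 ratio -1.95), where 5.09% of genes were that much lower, 4.21% higher and 9.3% differed in either direction, and the median over the members was -0.65. Among ENSCs 4 members passed, namely Atf3 (6.56-fold, -2.71), Fosb (4.05-fold, -2.02), Egr3 (at least 2.98-fold) and Ier2 (3.15-fold, -1.66). After the subtraction of length and GC trends Atf3 alone passed, and 5 of 10 members were higher in cochlear ENSCs. The background there was 7.94% of genes lower, 7.8% higher and 15.7% in either direction, and the median over the members was -1.05. In all, 8 of 10 members were lowest in cochlear HCs, with Egr3 tied, and highest in vestibular ENSCs, an order shown by 17.5% of all genes. The exceptions were Jund, highest in vestibular HCs, and Egr2, highest in cochlear ENSCs. The vestibular ENSC library enters both the vestibular HC to ENSC ratio and the ENSC ratio between organs, so the large vestibular differences of Atf3, Fosb and Ier2 and their large organ differences share that library.

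**Figure D3:**
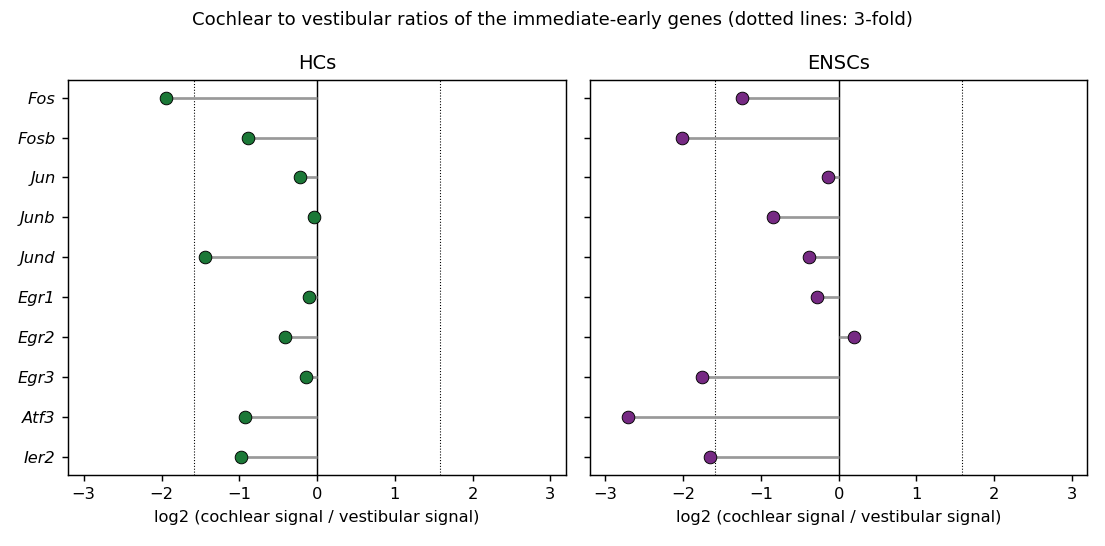
Log2 ratio of cochlear to vestibular signal for each immediate-early gene, among HCs and among ENSCs, with lines at 0 and 3-fold. The values among HCs are below 0, that of Egr3 resting on signals near the floor, with Fos furthest at -1.95, and among ENSCs Atf3 reaches -2.71 while Egr2 lies at 0.19.

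Base composition moved with these ratios. All 10 members had a higher exonic GC content than the median gene. Junb, Jund, Egr3 and Ier2 had contents of 62.6%, 62.7%, 62.5% and 60.9% against a median of 48.8% over all genes, and Fos, the lowest, had 52.0%. Across genes above the floor, GC content and the log2 ratio of HCs to ENSCs had a Spearman correlation of -0.0400 in the cochlea over 10722 genes and -0.395 in the vestibular system over 10358. For the ratio of cochlear to vestibular signal it was 0.0215 among HCs over 10850 genes and -0.453 among ENSCs over 10475. These describe genes that share the same libraries. GC-rich genes as a whole thus had relatively higher signal in the vestibular ENSC library.

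The ratios were therefore also computed after the trends on exonic length and GC content had been subtracted. In the cochlea 3 members stayed at least 3-fold lower in HCs (Fos at -2.04, Fosb at -1.85 and Jun at -1.70), where 8.41% of all genes were lower. Ier2 was then at -1.28, and the median over the members was -1.26. In the vestibular system the median went from -1.70 to -0.76, and Fosb (-2.14) and Atf3 (-2.73) stayed lower by at least 3-fold, where 10.2% of all genes did. Jun, Junb, Ier2 and Egr3 were then at -0.83, -0.69, -0.92 and -0.16, and Jund was 3.48-fold higher in HCs (1.80). Of the members, 9 kept a vestibular ratio below 0, of which Egr2 (-0.11) and Egr3 (-0.16) were nearly level. The corrected vestibular median over all genes was 0.11. Among HCs of the organs the values hardly moved, with Fos at -1.91. Among ENSCs only Atf3 stayed past 3-fold (-2.40), where 4.91% of all genes were lower and 12.5% differed in either direction, the median went from -1.05 to -0.28, and Jun, Junb, Jund and Egr1 turned to higher in the cochlea, so 5 members were below 0 and 5 above. The part of base composition in the uncorrected ratios was not tested beyond this subtraction.

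**Figure D4:**
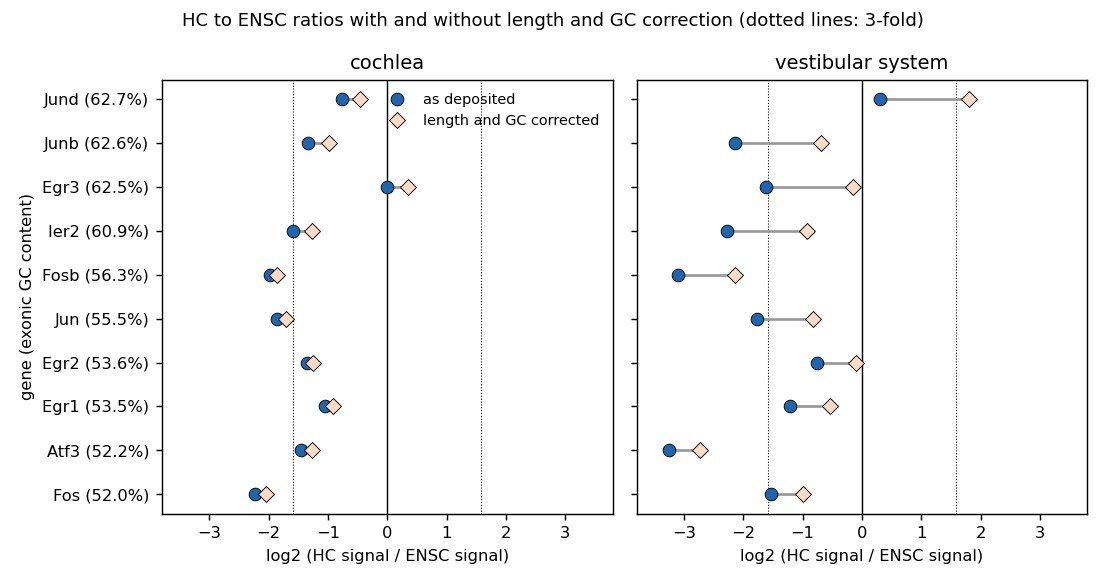
Log2 ratio of HC to ENSC signal of each immediate-early gene as deposited and after subtraction of the trends on exonic length and GC content, for the cochlea and the vestibular system. Cochlear values shift little, while vestibular values shift upward, least for Atf3 (-3.25 to -2.73) and Fos and most for Jund (0.31 to 1.80) and Egr3.

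Markers of other cells moved with the cell populations too. Of 8 mesenchymal markers 6 were in the table, with summed signals of 866.25 in HCs and 15436 in ENSCs of the cochlea and 227 in HCs and 2384.5 in ENSCs of the vestibular system; HC signals were lower by 3-fold or more for 3 of 6 in the cochlea and for 5 of 6 in the vestibular system. Lum, encoding the matrix proteoglycan lumican, made up most of the cochlear ENSC sum at 12731.25, and Tbx18 lay at the floor in both cochlear libraries. Of 5 endothelial markers Kdr and Flt1 were in the table, summing to 46.25 to 159 in 3 libraries and to 1481.75 in vestibular ENSCs, nearly all from Kdr, the VEGF receptor. Glial markers, 4 of 5 in the table, summed to 733.25 and 252.25 in HCs and 722.5 and 1566.25 in ENSCs. Neuronal markers, 4 of 6 in the table, summed to 8079.5 and 7650.5 in HCs and 5205.75 and 471.5 in ENSCs. They went both ways in the cochlea, where Nefl (2380.75 in HCs, 41 in ENSCs) and Nefm were higher in HCs past 3-fold, Ntrk2 was lower and Isl1 made up 4976.25 of the ENSC sum. Of 5 macrophage markers only Cd68 was in the table, at 20 to 24.75, and of 5 red blood cell and 5 melanocyte markers 0 were. Supporting cell markers summed to 16168.25 in HCs and 98992.5 in ENSCs of the cochlea, while the vestibular sums were 13851.25 in HCs and 23518.5 in ENSCs. Epyc alone gave 62028.5 of the cochlear ENSC sum, and of the 10 markers 8 were lower in HCs in the cochlea but 5 lower and 4 higher in the vestibular system (median -0.12), where Sox2 was higher at 3960.75 against 465.75. Epithelial markers summed to 7431 in cochlear HCs, 9905 in their ENSCs, 1758 in vestibular HCs and 21993.75 in vestibular ENSCs. Of these 5 markers, 4 were lower in cochlear HCs by 3-fold or more and 5 in vestibular HCs, with median log2 ratios of -1.99 and -4.21, the direction of the members. The part of cell makeup in the immediate-early differences was not tested.

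Other immediate-early genes were also mostly lower in HCs. Of 42 listed, the table held 40, of which 14 were lower by 3-fold or more and 0 higher in cochlear HCs, with a median log2 ratio of -1.09. In vestibular HCs 22 were lower and 0 higher, with a median of -1.96. At any size 35 and 36 of 40 were lower in HCs. The shares over all genes were 9.2% and 14.3% past 3-fold and 46.6% and 50.1% at any size. After the length and GC subtraction the counts were 13 lower in the cochlea and 20 lower and 1 higher in the vestibular system. Sgk1, a serum- and stress-induced kinase, had the largest cochlear difference, with signals of 137.25 in cochlear HCs, 1353 in cochlear ENSCs, 488.5 in vestibular HCs and 2086 in vestibular ENSCs (log2 ratio -3.30 in the cochlea). Gadd45b, a growth arrest and stress gene, had the largest vestibular one as deposited, with 35.5 in HCs and 782 in ENSCs (-4.46, and -3.35 after the subtraction). Genes with an HC value in the tied range could rank higher. Among them, Ier3 was at least 6.44-fold lower in the cochlea and Id1 at least 16.0-fold lower in the vestibular system. Before the subtraction, genes of this list that were higher in HCs did not reach 3-fold.

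Between organs this list was mixed: 3 genes were at least 3-fold higher and 4 lower in cochlear than in vestibular HCs, with a median of -0.08. Among ENSCs 2 were higher and 15 lower, with a median of -0.94. Of all genes, 4.21% were that much higher and 5.09% lower among HCs, and 7.8% higher and 7.94% lower among ENSCs. Ctgf, a matricellular growth factor gene, was higher in the cochlea in both populations, at 1675 against 93 in HCs (4.17) and 2913.5 against 424 in ENSCs (2.78). Socs3, an inhibitor of cytokine signalling, stood at 24 in cochlear against 365.75 in vestibular HCs, lower by at least 15.1-fold. Csrnp1, a nuclear protein of the early response, had 73.5 in cochlear and 1004 in vestibular ENSCs (-3.77; -2.95 after the subtraction). The ENSC counts were then 4 higher and 11 lower, where 4.91% of all genes were lower. At any size, 23 and 29 of 40 were lower in the cochlea among HCs and ENSCs, and 21 and 27 after the subtraction. Before it, 46.5% and 47.1% of all genes were lower.

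Other leucine zipper factors related to FOS and JUN include dimer partners of both. Of 15 listed, 13 were in the table (Batf and Batf3 were not); 2 passed 3-fold with lower signal in cochlear HCs, and 5 were lower and 1 higher in vestibular HCs. The medians were 0.00 and -0.79. Of all genes, 9.2% were lower past 3-fold in cochlear HCs, and 14.3% lower and 13.8% higher in vestibular HCs. After the length and GC subtraction 4 of the list were lower and 0 higher in vestibular HCs, where 10.2% of all genes were lower. Fosl2, a FOS relative, had signals of 247.75 in cochlear HCs, 897 in cochlear ENSCs, 166.75 in vestibular HCs and 5297.5 in vestibular ENSCs, and its log2 ratios of -1.86 and -4.99 were the lowest of the list among genes with a signal of at least 200. Maf, at 201.5 in vestibular HCs and 60 in vestibular ENSCs, was the gene higher in HCs (1.75; 1.49, under 3-fold, after the subtraction). Between ENSCs, Maff was lower in the cochlea (138 against 827, -2.58; -1.74 after the subtraction) and Atf5 higher (340.75 against 93.75, 1.86; 2.80 after it). Of 4 EGR relatives and corepressors, 0 passed 3-fold between cochlear HCs and ENSCs, where 17.6% of all genes did. In vestibular HCs 1, Nab2, was lower past 3-fold, where 14.3% of all genes were. The medians were 0.54 for cochlear and 0.65 for vestibular ratios. After the subtraction Nab2 was no longer past 3-fold in the vestibular system, and the median was 1.52. Past 3-fold, 2 of the 4 were then higher in vestibular HCs, where 24.8% of all genes differed in either direction.

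Feedback genes that end the response, which encode MAP kinase phosphatases, Sprouty proteins and RNA decay factors, had lower signal in HCs for 10 of 13 genes in the cochlea and 12 of 13 in the vestibular system, at any size. At the 3-fold threshold, 5 passed 3-fold with lower signal in cochlear and 4 in vestibular HCs, and 0 were higher. Of all genes, 9.2% and 14.3% were lower past 3-fold, and 46.6% and 50.1% at any size. Zfp36, whose protein hastens decay of AU-rich messages, had 464.5 in cochlear HCs, 3039.75 in cochlear ENSCs, 576.25 in vestibular HCs and 8625 in vestibular ENSCs (vestibular log2 ratio -3.90; -3.19 after the subtraction). Its relative Zfp36l2 had the largest cochlear ratio of the list as deposited, at 45 in HCs and 362.25 in ENSCs (-3.01). Between organs Dusp16, a JNK phosphatase gene, was higher in cochlear HCs (1154.75 against 342.25, 1.75), and Dusp4 was lower in cochlear ENSCs (53.25 against 365.25, -2.78; -2.04 after the subtraction). Of this list 3 genes were lower in cochlear ENSCs past 3-fold, where 7.94% of all genes were. After the subtraction 1 was, where 4.91% of all genes were.

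Upstream of the response lie kinases and the DNA-binding factors they activate. Of 25 MAP kinase, serum response and CREB pathway genes, 0 passed 3-fold between cochlear HCs and ENSCs, where 17.6% of all genes did. Their median was -0.07. In the vestibular system 6 were lower and 1 higher in HCs, where 14.3% of all genes were lower and 13.8% higher. At any size, 19 of 25 were lower there, against 50.1% of all genes, with a median of -0.68. After the subtraction 3 were lower past 3-fold and 0 higher, where 10.2% of all genes were lower. Mapk3, encoding ERK1, stood at 66 in vestibular HCs and at 403 in their ENSCs (-2.61; -1.42, under 3-fold, after the subtraction). Mapk10, encoding the neuronal kinase JNK3, was highest in vestibular HCs at 387.5, against 121.25 in vestibular ENSCs (1.68; 1.19 after the subtraction) and 47.5 in cochlear HCs (-3.03 from cochlear to vestibular HCs).

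**Figure D5:**
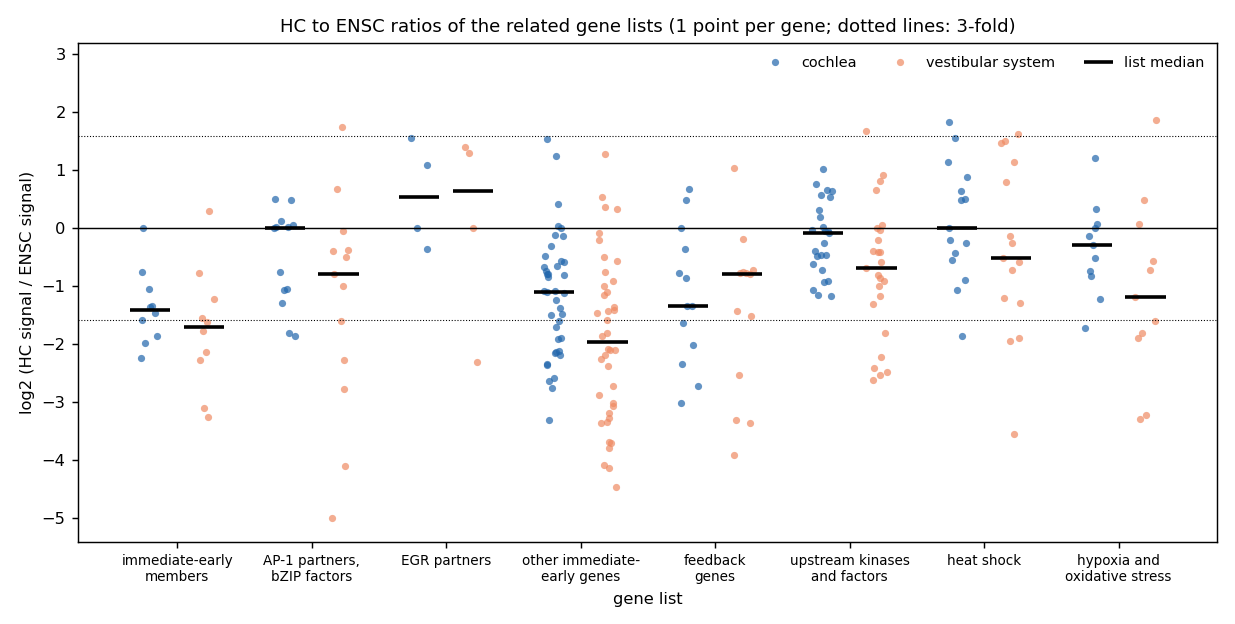
Log2 ratio of HC to ENSC signal for the immediate-early genes and the context lists, 1 point per gene with the median of each list drawn as a bar, for the cochlea and the vestibular system. Immediate-early medians lie at -1.41 and -1.70, other immediate-early genes at -1.09 and -1.96, and heat shock genes at 0.00 and -0.52.

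Heat shock genes are another set that responds to stress of the cell. At any size, 7 of 15 were lower in HCs in the cochlea, 10 of 15 in the vestibular system, and 13 of 15 were lower in cochlear than in vestibular ENSCs. The shares over all genes were 46.6%, 50.1% and 47.1% in that order. Past 3-fold, 1 was higher and 1 lower in cochlear HCs (median 0.00), and 1 was higher and 3 lower in vestibular HCs (median -0.52; 0.03 after the subtraction). With higher and lower genes pooled, these shares are at or below those of all genes, 17.6% for the cochlea and 28.1% for the vestibular comparison. By direction, the 3 of 15 lower in vestibular HCs were a larger share than the 14.3% of all genes. The 1 of 15 higher there was a smaller share than the 13.8% of all genes. Hsp90aa1, the stress-inducible HSP90 chaperone, was higher in cochlear HCs at 3155.25 against 883.25 (1.84), and Hspa1b, an inducible HSP70, was higher in vestibular HCs at 857.75 against 278 (1.63; 2.82 after the subtraction). Bag3, an HSP70 co-chaperone, was lower in vestibular HCs at 42.75 against 501 (-3.55; -2.49 after the subtraction). Between ENSCs, Hspa8, the constitutive HSC70, was lower in the cochlea at 113.25 against 414 (-1.87).

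Of 11 genes of hypoxia and oxidative stress, the cochlea had 1 lower in HCs by 3-fold or more (median -0.29), and 5 were lower and 1 higher in vestibular HCs (median -1.19, and -0.71 with values in the tied lowest range set to its top). Of all genes, 9.2% were lower past 3-fold in cochlear HCs, and 14.3% lower and 13.8% higher in vestibular HCs. After the subtraction the vestibular counts were 2 lower and 1 higher, where 10.2% of all genes were lower. Slc2a1, the GLUT1 glucose transporter, stood at 200 in cochlear HCs against 654.25 in ENSCs (-1.71; -1.55, under 3-fold, after the subtraction). Txnrd1, thioredoxin reductase, was higher in vestibular HCs at 3397 against 925.75 (1.88). Srxn1, sulfiredoxin, was lower there at 85.75 against 840.5 (-3.29; -2.60 after the subtraction), and also lower in cochlear than in vestibular ENSCs at 79.25 (-3.41).

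The protein-coding genes most like a member were sought by the root mean square difference of log2 signals, each centred on its mean over the 4 libraries, among 6455 genes. Closest to Fos was Mpzl1, a cell surface glycoprotein gene, with 151.25 in cochlear HCs, 731.75 in cochlear ENSCs, 594.5 in vestibular HCs and 1672 in vestibular ENSCs (0.0224), followed by Sorcs2 (0.114) and Dsc2 (0.140). Closest to Jun were Dazap2 (0.0270), Sntb2 (0.0771) and Hmcn1 (0.0879). Closest to Egr1 were the abundant housekeeping genes Canx (0.0254) and Npm1 (0.0490), then Tm9sf4 (0.0503). Closest to Jund were 1110059E24Rik (0.0951), Stox2 (0.107) and Rasgef1b (0.109).

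For these 4 genes, other members were not among the 3 nearest. The member nearest to Fos was Ier2, at rank 47 (0.374), and the one nearest to Jun was Junb, at rank 100 (0.261). Egr2 was nearest to Egr1, at rank 139 (0.199), and also to Jund, at rank 1168 (0.590). The measure rests on 4 values per gene, and these ranks describe the libraries only.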

How the data were processed

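Per the labels and methods, the authors aligned the first 50 nt of reads to mm9 with TopHat, counted reads on ENSEMBL genes with HTSeq, quantile-normalized the counts, set a floor of 20 and kept genes covered by at least 20 reads; tool versions and the strand setting are not given in the sources used here. The deposited values are thus a normalized signal, not counts, and a count test could not be used. The series text speaks of triplicates, whereas the table holds 1 column per population, so no test, error or interval was computed and the depth is unknown.

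Ratios were taken on the log2 scale of the deposited signal with no pseudocount, and a gene was counted when at least 3-fold apart. A corrected ratio subtracted local regression trends (span 0.3, 2 robust iterations, genes above the floor) on exonic length, then GC content, from the mm9 annotation, found for 12799 of 12814 genes. Alternatives were floors of 50 and 100, pseudocounts of 20 and 100, median centring, thresholds of 2- and 5-fold, and tied lowest values set to the top of their range. The calculation was checked on simulated data. Python 3.11.15, pandas 2.3.3, numpy 2.4.6, statsmodels 0.14.6 and matplotlib 3.10.9 were used.

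All members are named. From each context list, the gene with the largest ratio past 3-fold in each comparison and direction was named where its higher signal was at least 200. For Fos, Jun, Egr1 and Jund the 3 genes nearest in centred log2 signal were named among protein-coding genes above the floor in all libraries with a highest signal of at least 200. Marker genes and genes overlapping members are named where they are described. The members and lists were chosen with earlier results of these data known.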

Additional observations from a re-analysis of the deposited data

How the results depend on the processing

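Of 280 log2 ratios of members under 7 alternatives, 252 kept their side of 3-fold. The 4 that changed sign were those of Jun (0.54), Junb (0.13), Jund (0.64) and Egr1 (0.19) between ENSCs after the length and GC subtraction. That subtraction gave 3 members past 3-fold in the vestibular system (24.8% of all genes; median -0.76) and 1 between ENSCs (12.5%; median -0.28). A pseudocount of 20 gave 2 members between ENSCs (10.4% of all genes), and one of 100 gave 3 in the vestibular system (10.9%) and 2 between ENSCs (5.14%). A 2-fold threshold gave 8 members in the cochlea (33.9% of all genes) and 2 between HCs (21.0%). A 5-fold threshold gave 0 in the cochlea (8.55% of all genes), 2 in the vestibular system (14.2%), 0 between HCs (3.43%) and 1 between ENSCs (6.27%). The other counts stayed within 1.5 times, and the other medians kept their sign. The length and GC subtraction and the tied-range setting of the context and marker lists were added after the data were seen. Centring on the median of genes above the floor shifted ratios by at most 0.06 on the log2 scale. Egr3 and cochlear Ier2 depended most on the treatment of low values. No paired analysis was possible because each group has 1 library, and for that reason no library could be left out. Depth and replicate error are unknown, which limits all ratios and most of all those of Egr3, Ier2 and Junb.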
